A study of Saccharomyces cerevisiae with 7 samples.

Results

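The genes described here are 10 genes of protein breakdown in the budding yeast Saccharomyces cerevisiae: 7 peptidase genes (PEP4, PRB1, PRC1, CPS1, APE1, APE3 and LAP3), the proteinase B inhibitor gene PBI2, the vacuolar mannosidase gene AMS1 and the polyubiquitin gene UBI4. They were chosen by name, all 10 were found among the 6665 genes measured, and all 10 had enough reads to be tested. RNA was sequenced from 7 libraries of BY4741, a haploid strain of mating type a in common laboratory use. The groups were a lawn spread on synthetic complete plates and grown for 3 days (1 library), cells given 100 nM rapamycin for 4 h (1 library), cultures grown to saturation (2 libraries), cells given 100 nM rapamycin for 1 h (1 library) and cultures harvested in early log phase at an OD600 of 0.5 (2 libraries). All were wild type, all were started from overnight cultures at an OD600 of 0.2, and all grew at 30 °C. The rapamycin cells were first grown to early log phase and then moved by filtration into fresh medium with the drug, so the drug and the transfer cannot be told apart in these libraries. Rapamycin inhibits TOR complex 1, the kinase that couples growth to nutrients.

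The yeast vacuole is the counterpart of the lysosome. Its proteases are made as inactive precursors, sorted through the secretory pathway or, for a few cargoes, carried in directly from the cytoplasm by the Cvt pathway, and then cut into their active forms by proteinase A and proteinase B. They break down proteins delivered by autophagy and endocytosis when nutrients run short and growth stops. Cytosolic inhibitors bind proteinases that escape. Ubiquitin marks proteins for the proteasome and membrane proteins for the vacuole. In growing cells it comes mainly from genes that fuse it to a ribosomal protein, and UBI4, which encodes a head-to-tail chain of ubiquitin units, is the source known for stress.

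Gene reads per library ran from 1019287 to 9438379, and the 10 genes had between 90 reads (LAP3, saturated replicate 2) and 90649 reads (CPS1, rapamycin 1 h). Levels of the 10 genes compared between conditions are CPM, a gene's reads per 1000000 gene reads of its library after TMM scaling, the edgeR correction for library composition, and levels compared between genes, ratios, sums and the levels of genes outside the 10 are the deposited TPM, which corrects for gene length but not for composition. With plain library totals the median log2 change over all genes tested against log phase was 0.47 in the lawn and 0.39 at 4 h of rapamycin. It was −0.21 in saturated cultures and 0.32 at 1 h. With TMM, in the same order, these medians were 0.04, 0.06, 0.10 and 0.04. A change no larger than the gap between the medians therefore depends on the scaling. All 10 genes were higher in log-phase replicate 2 than in log-phase replicate 1, by 1.07 times for LAP3 up to 3.12 times for AMS1, while 49.4% of all genes tested were higher in that library. What sets these log-phase libraries apart was not tested, and calls that end without one of them are named below. Nothing in the labels states whether the 2 log-phase or the 2 saturated libraries were grown separately, and p-values therefore cover no more than how far these samples vary, and that variation may be technical. Conditions with 1 library take their error from the log-phase and saturated groups. Leaving out a library of either group therefore changes the error of every comparison, including those it does not enter. Calls over all genes moved in such fits. BY4741 lacks LEU2, URA3 and MET17, and reads of these genes numbered 0 to 1, 0 to 44 and 0 to 12 per library, with the 44 at 4 h of rapamycin. HIS3, of which the strain keeps a part, had 126 to 2262 reads. The a-factor gene MFA1 had 11 to 858 reads and the alpha-factor gene MF(ALPHA)1 had 0 to 7.

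Against log phase, 7 of these genes rose in at least 1 condition, and the share of all genes that did so is not given here. AMS1 had the largest rise in the lawn and at 4 h of rapamycin, PRB1 in saturated cultures and CPS1 at 1 h. After 1 h of rapamycin 7 of the 10 rose and 0 fell, where 9.18% of all genes tested rose and 11.5% fell. After 4 h 5 rose and 0 fell, against 14.8% and 11.5% of all genes. In saturated cultures 5 rose and 1 fell, against 27.9% and 25.1%, and in the lawn 4 rose and 1 fell, against 20.7% and 20.9% (edgeR quasi-likelihood test, Benjamini-Hochberg adjusted p under 0.05 over 5827 genes). For both counts of 0, the count at an unadjusted p under 0.05 and the DESeq2 count were also 0. The median log2 change of the 10 was 2.51 at 1 h, 1.27 at 4 h, 0.65 in saturated cultures and 0.49 in the lawn, beside 0.04, 0.06, 0.10 and 0.04 over all genes tested. All 4 comparisons share the log-phase libraries. PRB1, PBI2, AMS1 and UBI4 rose in all 4, and how many of all genes did so is not given here. CPS1 and LAP3 passed the test as higher at 1 h of rapamycin and not in the other 3. That difference was tested directly only for 4 h against 1 h. Without log-phase replicate 1 the genes that rose numbered 6 at 1 h, 2 at 4 h, 3 in saturated cultures and 2 in the lawn, where 3.85%, 6.83%, 17.4% and 12.7% of all genes tested in that fit rose. With plain library totals the calls over all genes split as 919 higher and 590 lower at 1 h (535 and 673 with TMM), 1284 and 423 at 4 h (863 and 669), 1225 and 1833 in saturated cultures (1626 and 1460) and 1772 and 870 in the lawn (1204 and 1218).

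**Figure D1:**
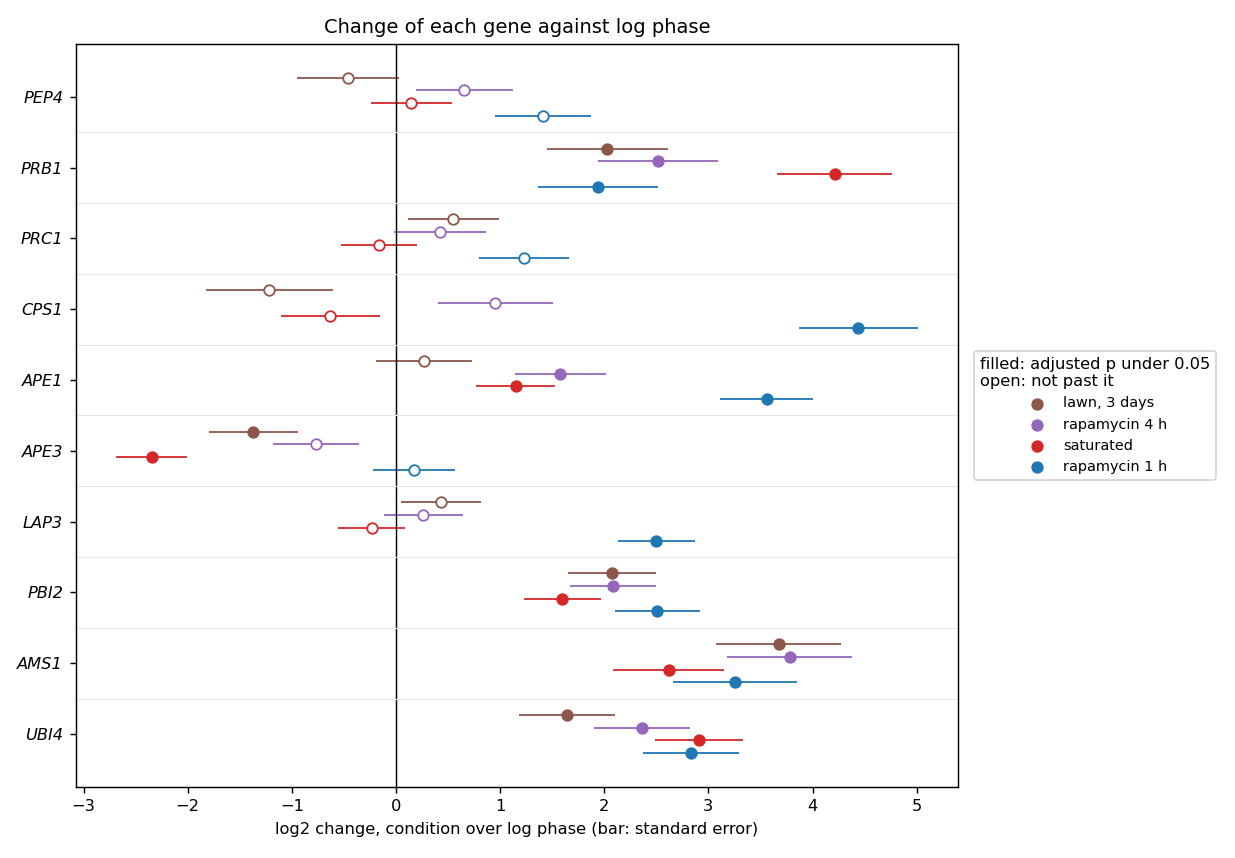
Log2 change of each gene in the lawn, at 4 h of rapamycin, in saturated cultures and at 1 h of rapamycin over log phase, with standard errors as bars; filled points passed an adjusted p of 0.05 and open points did not. PRB1 was highest in saturated cultures at 4.21, CPS1 at 1 h of rapamycin at 4.44, and APE3 was below 0 in saturated cultures at −2.35.

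PEP4 (YPL154C, chromosome XVI, 259714 to 260931, genome build R64) encodes proteinase A, the aspartyl protease that starts the activation of other vacuolar precursors. It stood at 400.2 CPM in the lawn, 866 at 4 h of rapamycin, 565 and 655 in saturated cultures and 1465 at 1 h, against 359 and 743 in log phase. The 1 h library was above all others, while the saturated values lay between the log-phase ones. No change of PEP4 passed the test: log2 1.41 ± 0.46 at 1 h (SE, edgeR, Benjamini-Hochberg adjusted p = 0.0596), 0.66 ± 0.47 at 4 h, 0.15 ± 0.39 in saturated cultures and −0.46 ± 0.49 in the lawn. The value at 1 h did pass with RLE scaling (1.45, adjusted p = 0.0318) and with DESeq2 (adjusted p = 0.0158). It was 1.98 with log-phase replicate 2 left out and 1.40 with either saturated replicate left out. The saturated value turned to −0.16 with plain library totals.

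PRB1 (YEL060C, chromosome V, 40046 to 41953) encodes proteinase B, a subtilisin-like serine protease. It stood at 1089 CPM in the lawn, 1522 at 4 h of rapamycin, 3148 and 6729.8 in saturated cultures and 1025 at 1 h, against 174 and 361 in log phase. Every library outside log phase was above both log-phase libraries, and both saturated libraries were above all the rest. PRB1 rose 18.5-fold in saturated cultures (log2 4.21 ± 0.56, adjusted p = 0.00035), and by log2 2.51 ± 0.58 at 4 h, 2.03 ± 0.58 in the lawn and 1.94 ± 0.58 at 1 h (adjusted p = 0.0143, 0.0203 and 0.0422). The saturated rise was 3.35 without saturated replicate 2. Without log-phase replicate 1 the rises at 4 h (2.07), in the lawn (1.60) and at 1 h (1.50) did not pass.

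PRC1 (YMR297W, chromosome XIII, 861922 to 863520) encodes carboxypeptidase Y, a serine carboxypeptidase long used to follow sorting to the vacuole. It stood at 925 CPM in the lawn, 845 at 4 h, 641 and 482 in saturated cultures and 1475 at 1 h, against 464 and 799 in log phase. As for PEP4, the 1 h library was the highest and the saturated pair overlapped the log-phase pair. No change passed: log2 1.23 ± 0.43 at 1 h (adjusted p = 0.0785), 0.55 ± 0.44 in the lawn, 0.42 ± 0.44 at 4 h and −0.16 ± 0.37 in saturated cultures. The 1 h value did pass with DESeq2 (adjusted p = 0.0297). It was 1.21 without saturated replicate 1 or 2, and the saturated value was 0.19 without log-phase replicate 2.

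CPS1 (YJL172W, chromosome X, 97737 to 99467) encodes carboxypeptidase S, a vacuolar metallopeptidase that frees amino acids from peptides. It stood at 163 CPM in the lawn, 734 at 4 h, 137 and 358 in saturated cultures and 8225 at 1 h of rapamycin, against 318 and 441 in log phase. The 1 h library was far above every other, and the lawn lay below both log-phase libraries. CPS1 rose 21.7-fold at 1 h (log2 4.44 ± 0.57, adjusted p = 0.00078). Its values were 0.95 ± 0.55 at 4 h, −0.63 ± 0.47 in saturated cultures and −1.22 ± 0.61 in the lawn, none past the test (adjusted p = 0.233, 0.288 and 0.139). The saturated value was −1.68 without saturated replicate 2, and that in the lawn was −1.39 without saturated replicate 1 and −1.40 without saturated replicate 2. By TPM, CPS1 was the 11th most abundant of the 6665 genes at 1 h, at 6415 TPM.

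**Figure D2:**
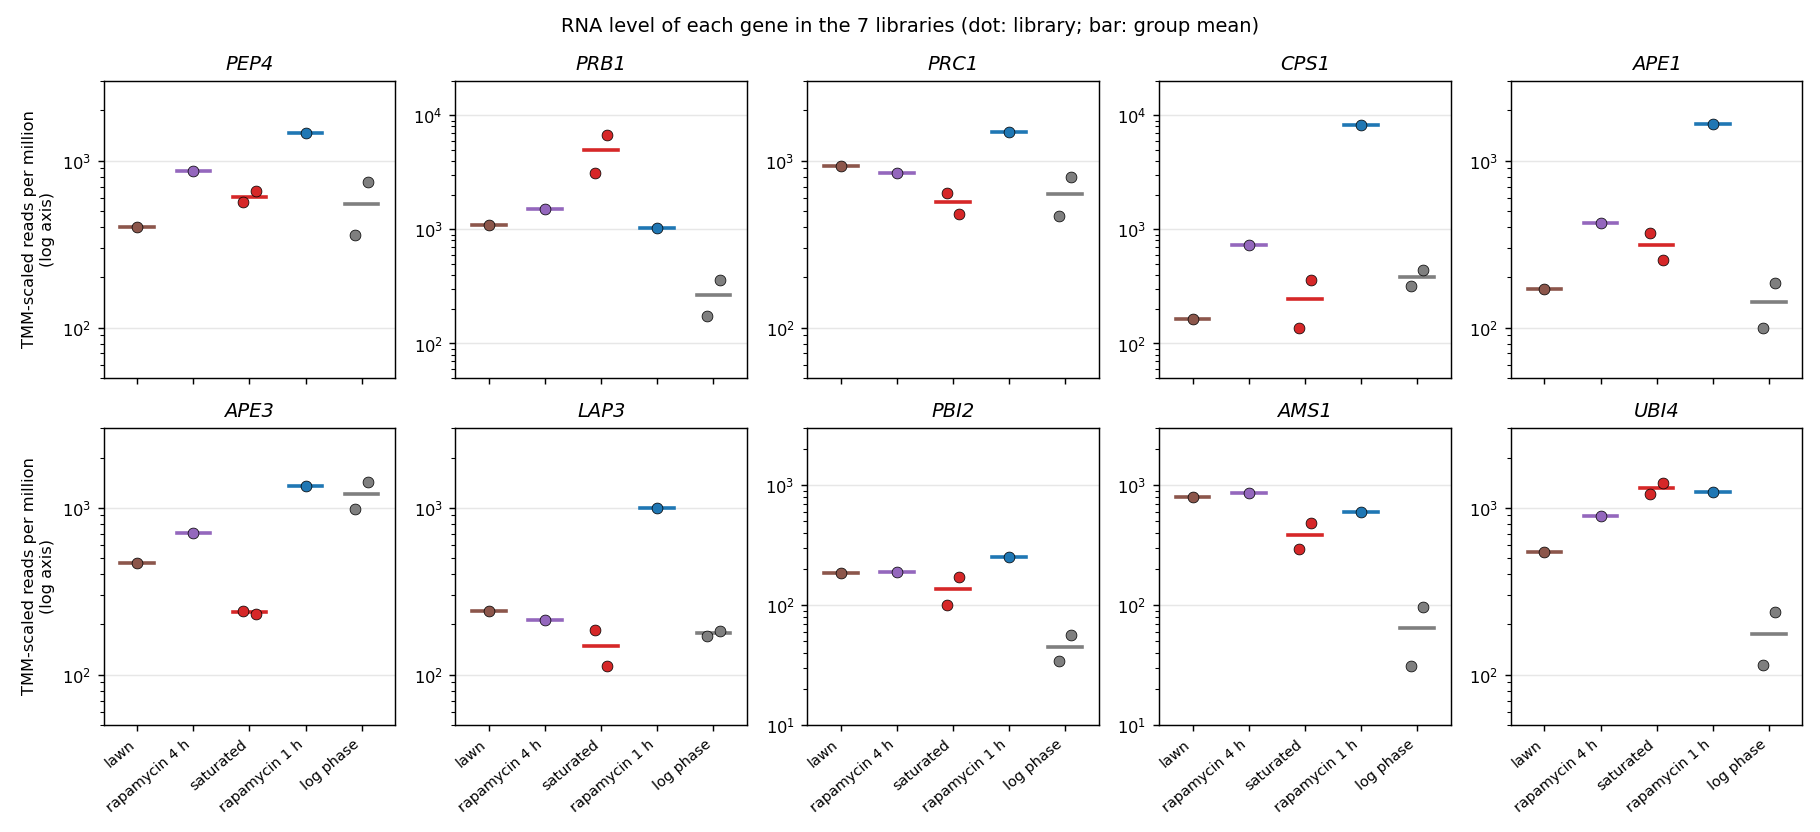
TMM-scaled CPM of each of the 10 genes on log axes, in the lawn, at 4 h of rapamycin, in saturated cultures, at 1 h of rapamycin and in log phase; dots are libraries and bars are group means. CPS1 reached 8225 at 1 h of rapamycin, PRB1 3148 and 6729.8 in the saturated libraries, and all 10 genes were higher in replicate 2 (right dot) than in replicate 1 of log phase.

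The aminopeptidase genes went apart from each other. APE1 (YKL103C, chromosome XI, 246138 to 247682), for aminopeptidase I, the main cargo of the Cvt pathway, stood at 170.2 CPM in the lawn, 422 at 4 h, 369 and 255 in saturated cultures and 1669 at 1 h, against 99.6 and 185 in log phase. The 1 h library was the highest, and the lawn lay within the log-phase range. APE1 rose 11.8-fold at 1 h (log2 3.56 ± 0.45, adjusted p = 0.000714), by 1.58 ± 0.44 at 4 h (adjusted p = 0.0289) and by 1.15 ± 0.38 in saturated cultures (adjusted p = 0.0309), and in the lawn its value was 0.27 ± 0.46. The 4 h rise did not pass without log-phase replicate 1 (1.19), nor did the saturated rise without log-phase replicate 1 (0.77), without saturated replicate 1 (0.72) or with plain library totals (0.84).

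APE3 (YBR286W, chromosome II, 774700 to 776313) encodes aminopeptidase Y, a vacuolar enzyme sorted through the secretory pathway. It stood at 465 CPM in the lawn, 707 at 4 h, 240.4 and 232 in saturated cultures and 1354 at 1 h, against 983 and 1422 in log phase. It was the only one of the 10 genes that passed the test as lower in any condition against log phase. APE3 fell in saturated cultures to 0.197 times its log-phase level (log2 −2.35 ± 0.34, adjusted p = 0.00059) and in the lawn (−1.37 ± 0.43, adjusted p = 0.0292). Its values were −0.77 ± 0.41 at 4 h and 0.17 ± 0.39 at 1 h. The lawn fall did not pass with plain library totals (−0.95) or when either log-phase replicate was left out (−1.60 without replicate 1, −1.16 without replicate 2). The 4 h value was −0.92 without saturated replicate 1 or 2.

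LAP3 (YNL239W, chromosome XIV, 200569 to 201933) encodes a cysteine aminopeptidase of the bleomycin hydrolase family, found in the cytosol. It stood at 239 CPM in the lawn, 212 at 4 h, 184 and 113 in saturated cultures and 1002 at 1 h, against 171 and 183 in log phase. Apart from the 1 h library, all values lay between 113 and 239. LAP3 rose 5.66-fold at 1 h (log2 2.50 ± 0.37, adjusted p = 0.00138), and its values in the lawn (0.44 ± 0.38), at 4 h (0.26 ± 0.38) and in saturated cultures (−0.23 ± 0.32) did not pass.

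AMS1 (YGL156W, chromosome VII, 210416 to 213667) encodes the vacuolar alpha-mannosidase, which breaks down free glycans and is another cargo of the Cvt pathway. It stood at 801 CPM in the lawn, 862 at 4 h, 294 and 480 in saturated cultures and 597 at 1 h, against 31.1 and 97.1 in log phase. Every library outside log phase was above both log-phase libraries, the lawn and 4 h libraries most of all. AMS1 rose by log2 3.78 ± 0.60 at 4 h, 3.68 ± 0.60 in the lawn, 3.25 ± 0.59 at 1 h and 2.62 ± 0.53 in saturated cultures (adjusted p = 0.0036, 0.00162, 0.00419 and 0.00321). Leaving out log-phase replicate 1 made these rises 3.15, 3.05, 2.62 and 2.00, and leaving out log-phase replicate 2 made them 4.73, 4.61, 4.22 and 3.55, all past the test. The saturated value was 2.03 without saturated replicate 2. In log phase AMS1 had the lowest TPM of the 10 genes, 8.77 and 27.9, and ranked 4496th of 6665.

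PBI2 (YNL015W, chromosome XIV, 605384 to 605611) encodes a small inhibitor of proteinase B that also takes part in vacuole fusion. It stood at 186 CPM in the lawn, 187 at 4 h, 100.2 and 172 in saturated cultures and 252 at 1 h, against 34.1 and 55.9 in log phase. The log-phase libraries were the lowest of the 7. PBI2 rose by log2 2.51 ± 0.41 at 1 h, 2.08 ± 0.41 at 4 h, 2.07 ± 0.42 in the lawn and 1.60 ± 0.37 in saturated cultures (adjusted p = 0.00239, 0.00783, 0.00442 and 0.00598). The saturated value was 0.98 without saturated replicate 2, and at 1.28 without log-phase replicate 1 it did not pass (adjusted p = 0.0512).

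PBI2 and the genes of 2 other protease inhibitors make a list of 3. All 3 passed as higher in the lawn and at both rapamycin times, and PBI2 and PAI3 in saturated cultures. Of all genes tested, 20.7% rose in the lawn, 14.8% at 4 h, 27.9% in saturated cultures and 9.18% at 1 h. PAI3 encodes the inhibitor of proteinase A and TFS1 that of carboxypeptidase Y. PAI3 had 1694 TPM in the lawn, 492 at 4 h of rapamycin, 46.8 and 135 in saturated cultures and 247 at 1 h, against 13.3 and 39.6 in log phase. It rose by log2 5.72 ± 0.62 in the lawn, 3.95 ± 0.61 at 4 h, 2.94 ± 0.61 at 1 h and 2.15 ± 0.62 in saturated cultures (adjusted p = 0.000297, 0.00326, 0.00852 and 0.0168), and the lawn was above saturated cultures in the direct test (3.57 ± 0.57, adjusted p = 0.00559). Without log-phase replicate 1 these rises were 4.90, 3.11, 2.11 and 1.37, the last of which did not pass, and leaving out log-phase replicate 2 made them 6.35, 4.60, 3.61 and 2.82. The saturated rise was 2.82 without saturated replicate 1 and 1.31 without saturated replicate 2. TFS1 had 517 TPM in the lawn, 574 at 4 h, 185 and 203 in saturated cultures and 845 at 1 h, against 38.8 and 166 in log phase. It rose by 2.55 ± 0.62 at 1 h, 2.01 ± 0.62 at 4 h and 1.85 ± 0.63 in the lawn (adjusted p = 0.0185, 0.0429 and 0.0425), and in saturated cultures it had 1.30 ± 0.55 (adjusted p = 0.0747). Without log-phase replicate 1 the TFS1 values were 1.82 at 1 h, and at 4 h (1.28) and in the lawn (1.13) they did not pass; without log-phase replicate 2 they were 3.84, 3.29 and 3.10, and that in saturated cultures passed (2.54). The saturated value of TFS1 also passed with RLE scaling, no filter, DESeq2 (adjusted p = 0.0327) and the 4-library fit (adjusted p = 0.03), with the replicate block (1.64, adjusted p = 0.000573), and when either saturated replicate was left out (1.21 and 1.10). By limma on log2(TPM + 1), PAI3 in saturated cultures (1.74, adjusted p = 0.0763) and TFS1 at 4 h (2.82, adjusted p = 0.0526) did not pass.

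Ratios of TPM within a library do not depend on scaling between libraries, and they showed how unevenly a protease and its partners changed. PRB1 over PEP4 was 1.74 in the lawn, 1.12 at 4 h of rapamycin, 3.56 and 6.56 in saturated cultures and 0.447 at 1 h, against 0.309 and 0.310 in log phase. The log-phase libraries gave nearly the same ratio although PEP4 and PRB1 each differed by about 2.07 and 2.08 times between them. PBI2 over PRB1 was 1.43 in the lawn, 1.03 at 4 h, 0.266 and 0.214 in saturated cultures and 2.06 at 1 h, against 1.64 and 1.30 in log phase. The inhibitor transcript was thus less abundant than that of its protease in both saturated libraries. It was about level with it at 4 h of rapamycin and more abundant in the others. PAI3 over PEP4 was 3.83 in the lawn, 0.518 at 4 h, 0.142 and 0.328 in saturated cultures and 0.152 at 1 h, against 0.0491 and 0.0695 in log phase, so only in the lawn did PAI3 exceed PEP4. With 2 libraries against 2 an exact permutation test cannot reach 0.05, and the ratios were not tested.

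**Figure D3:**
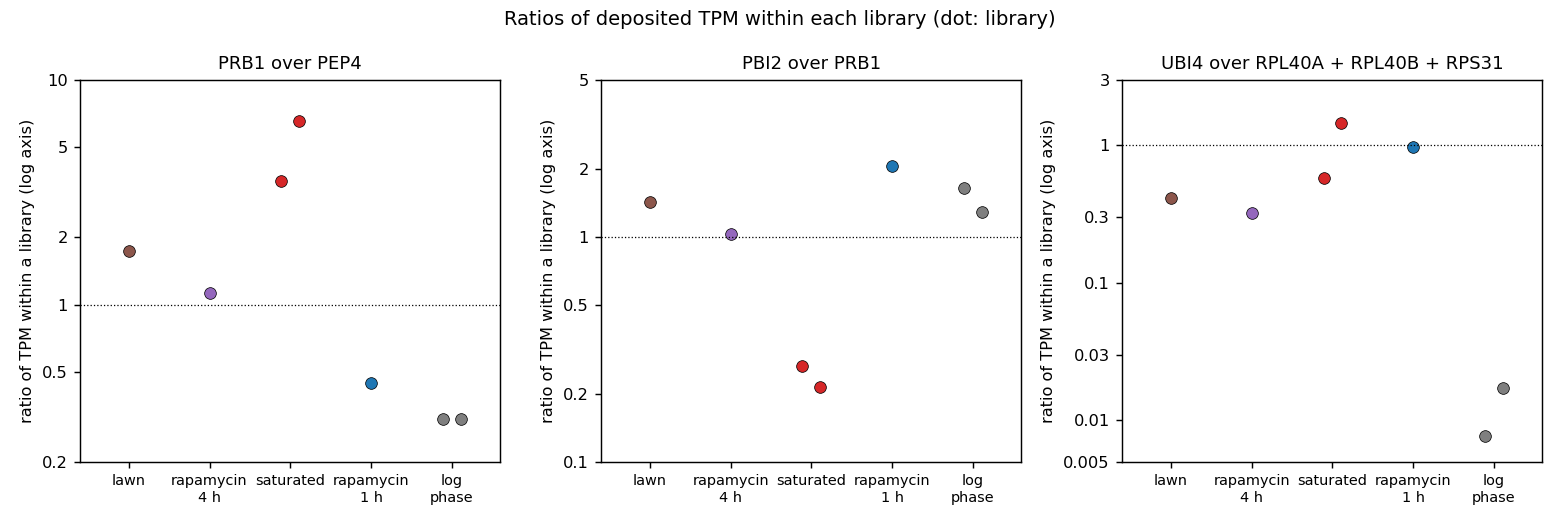
Ratios of deposited TPM within each library, on log axes: PRB1 over PEP4, PBI2 over PRB1, and UBI4 over the sum of RPL40A, RPL40B and RPS31, in the lawn, at 4 h of rapamycin, in saturated cultures, at 1 h of rapamycin and in log phase (dots are libraries, the dotted line is a ratio of 1). The saturated libraries stand at 3.56 and 6.56 for PRB1 over PEP4, and the log-phase ones at 0.00764 and 0.0172 for UBI4 over the fusion genes.

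UBI4 (YLL039C, chromosome XII, 64062 to 65207) stood at 544 CPM in the lawn, 898 at 4 h of rapamycin, 1208 and 1412 in saturated cultures and 1241 at 1 h, against 115 and 236 in log phase. All libraries outside log phase were above both log-phase libraries. UBI4 rose 7.51-fold in saturated cultures (log2 2.91 ± 0.42, adjusted p = 0.000543), 7.12-fold at 1 h (2.83 ± 0.46, adjusted p = 0.00233), 5.15-fold at 4 h (2.36 ± 0.46, adjusted p = 0.00736) and 3.12-fold in the lawn (1.64 ± 0.46, adjusted p = 0.0197). Without log-phase replicate 1 the rises at 4 h (1.93, adjusted p = 0.0507) and in the lawn (1.21) did not pass. The UBI4 units are near copies of each other and of the ubiquitin parts of RPL40A, RPL40B and RPS31, and how reads that match several of these places were counted is not given in the sources used here, so these levels are uncertain.

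The 3 ubiquitin fusion genes went the other way. RPL40A and RPL40B, which carry ubiquitin on a protein of the large ribosomal subunit, and RPS31, which carries it on one of the small subunit, together had 1530 TPM in the lawn, 3252 at 4 h, 1291 and 645 in saturated cultures and 1516 at 1 h, against 12038 and 11195 TPM in log phase. RPS31 changed by log2 −3.75 in the lawn, −2.55 at 4 h, −3.75 in saturated cultures and −3.75 at 1 h (SE 0.68, 0.63, 0.50 and 0.68, adjusted p = 0.00259, 0.0187, 0.000379 and 0.00394). RPL40A changed by −2.90, −1.98, −2.39 and −3.03 and RPL40B by −3.06, −2.06, −2.50 and −2.93 in the same order, all past the test, though RPL40B at 4 h did not pass with plain library totals (−1.73) or by limma on log2(TPM + 1) (−1.51, adjusted p = 0.129). Without saturated replicate 1 the saturated falls were −4.77 for RPS31 and −3.72 for RPL40B. UBI4 over the sum of the 3 was 0.417 in the lawn, 0.322 at 4 h, 0.581 and 1.46 in saturated cultures and 0.965 at 1 h, against 0.00764 and 0.0172 in log phase. RPL40A and RPL40B are near-identical copies, so their reads may be split between them.

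The 2 rapamycin times differed for 2 of the 10 genes, both lower at 4 h than at 1 h, and 0 were higher (at an unadjusted p under 0.05, 3 lower and 0 higher; DESeq2, 3 lower and 0 higher). Over all genes tested 0.978% were lower and 5.29% higher. CPS1 had 734 CPM at 4 h and 8225 at 1 h (log2 −3.49 ± 0.72, adjusted p = 0.0251), and LAP3 had 212 CPM at 4 h and 1002 at 1 h (−2.24 ± 0.46, adjusted p = 0.0248). APE1 had 422 at 4 h and 1669 at 1 h (−1.98 ± 0.54, adjusted p = 0.0679), and it passed with DESeq2 (adjusted p = 0.0037). Its value was −1.98 to −2.12 when any 1 log-phase or saturated library was left out. No such library enters this comparison, so those fits do not check the difference itself. PRB1 (0.57 ± 0.69) and AMS1 (0.53 ± 0.70) had values above 0 and the other 5 genes values between −0.43 and −0.94, none past the test. Each time is 1 library, so these calls have no replicate check.

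Lawn and saturated cultures were not told apart for any of the 10 genes by the main test, where 5.05% of all genes were higher and 7.14% lower in the lawn. At an unadjusted p under 0.05, 1 was higher and 2 lower, and DESeq2 called 1 lower. PRB1 had 1089 CPM in the lawn, against 3148 and 6729.8 in saturated cultures (log2 −2.18 ± 0.67, adjusted p = 0.0685). This passed with RLE scaling (adjusted p = 0.0359) and with DESeq2 (0.00106). With any 1 library of log phase or saturated culture left out, the PRB1 value was −1.50 to −2.67, the extremes without saturated replicates 2 and 1. No log-phase library enters this comparison, so leaving one out changes only the shared error, the scaling and the genes tested. UBI4 had 544 in the lawn, against 1208 and 1412 in saturated cultures (−1.27 ± 0.51, adjusted p = 0.149), and passed without saturated replicate 1 (−1.42) or 2 (−1.12). CPS1 passed as lower without saturated replicate 1 (−1.18) and stood at 0.28 without saturated replicate 2, where PBI2 (0.93) and AMS1 (1.48) passed as higher. With plain library totals the calls over all genes split as 1387 higher and 216 lower (294 and 416 with TMM), and PRC1, APE3 and LAP3 were called higher in the lawn, while PEP4 turned to 0.13 and CPS1 to 0.14.

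Against saturated cultures, 4 h of rapamycin had more APE3, at 707 CPM against 240.4 and 232 (log2 1.58 ± 0.39, adjusted p = 0.0292). It was the only one of the 10 genes called, with 7.57% of all genes higher and 7.95% lower. PRB1 was lower by −1.70 ± 0.65 and CPS1 higher by 1.58 ± 0.55 without passing (adjusted p = 0.109 and 0.0846). Without saturated replicate 1 PRB1 passed (−2.17), and without saturated replicate 2 CPS1 (2.48), PBI2 (0.97) and AMS1 (1.62) did. With plain library totals the split over all genes was 1797 higher and 266 lower (441 and 463 with TMM), CPS1 and LAP3 were called higher and UBI4 turned to 0.09 from a value of −0.54 ± 0.49.

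By TPM, which compares genes per length, the order of the 10 changed with the condition. PBI2 led in the lawn with 1099 TPM and at 4 h of rapamycin with 1097, followed at 4 h by PRB1 (1065) and UBI4 (1046). PRB1 led in both saturated libraries, with 1173 and 2701 TPM beside 749 and 943 TPM of UBI4, a difference of 1090.3 ± 943 (SD, n = 2). CPS1 led at 1 h with 6415 TPM, ahead of PEP4 (1624), PBI2 (1493), UBI4 (1462) and APE1 (1458). APE3 led in both log-phase libraries, with 559 and 824 TPM beside 271 and 571 TPM of PEP4, a difference of 271 ± 24.8 (SD, n = 2). PEP4 exceeded PRC1 (267 and 467 TPM) by 53.7 ± 70.1 (SD, n = 2), less than the spread of the difference. All 10 together had 4956 TPM in the lawn, 6942 at 4 h, 3342 and 5436 in saturated cultures and 16795 at 1 h, against 1760.2 and 2965 in log phase.

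Patterns over the 5 conditions were compared as the root mean square distance between log2 levels centred on each gene's mean, a description with no test, in which each library takes part in every gene's pattern. Among the 10 genes PEP4 and PRC1 were the closest (0.49), then PRC1 and LAP3 (0.55) and PBI2 and UBI4 (0.59), and PRB1 and CPS1 the farthest apart (2.56). Among the 5280 other genes with a mean of at least 10 CPM, ARG4, an arginine synthesis enzyme, lay closest to PBI2 (0.0616), followed by TFS1 (0.13) and YMR196W (0.14). ARG4 had 1181 TPM in the lawn, 1153 at 4 h, 467 in saturated cultures, 1639 at 1 h and 219 in log phase. Closest to PRB1 were APJ1 (0.13), a chaperone of the Hsp40 family, BAG7 (0.21) and UBX6 (0.23), closest to PEP4 were YPI1 (0.16), YLR126C (0.18) and YMR315W (0.18), and closest to UBI4 were ALT1 (0.28), an alanine transaminase, MCT1 (0.29) and GAL7 (0.30).

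Lists of related genes are described by their counts beside the shares of all genes tested: higher and lower in 20.7% and 20.9% in the lawn, 14.8% and 11.5% at 4 h of rapamycin, 27.9% and 25.1% in saturated cultures and 9.18% and 11.5% at 1 h. These shares are of the main fit. With a library left out or with plain library totals, calls over all genes moved too, as given above and in the closing section. List counts from such fits therefore cannot be read as changes of the lists alone. Other vacuolar hydrolases and related enzymes, 14 genes in all, had 5 risen (35.7%) and 2 fallen (14.3%) in saturated cultures, with a median of 0.08 on the log2 scale beside 0.10 over all genes. ATH1, the acid trehalase, rose by 3.19 ± 0.40, YSP3, which resembles PRB1 and may share reads with it, by 2.36 ± 0.29, and DPP1, a lipid phosphatase of the vacuole membrane, fell (−1.76 ± 0.36, and −2.65 without saturated replicate 1). PHO8, the vacuolar alkaline phosphatase, rose by 1.63 ± 0.33, whereas DAP2, a dipeptidyl aminopeptidase of the vacuole membrane, stood at −0.03 ± 0.28. Of the 14, 4 rose in the lawn and 0 fell (unadjusted 5 and 1, DESeq2 4 and 0), and 4 rose and 0 fell at 4 h (unadjusted 4 and 1, DESeq2 4 and 0). At 1 h the number risen moved with the library left out, and the median was 1.31, or 1.04 to 1.51 in those fits. In the main fit 7 rose and 1 fell at 1 h. The fallen one, PFF1 (−1.01 ± 0.31, adjusted p = 0.0485), named after its value was seen, did not pass with RLE scaling, plain library totals, no filter, DESeq2, limma or either log-phase replicate left out. The fallen in saturated cultures numbered 4 without saturated replicate 2.

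Of 12 genes of the Cvt pathway, 8 rose in the lawn (66.7%, against 20.7% of all genes), 7 at 4 h (58.3%, against 14.8%), 7 in saturated cultures (58.3%, against 27.9%) and 6 at 1 h of rapamycin (50%, against 9.18%), with 1, 0, 2 and 0 fallen, and medians of 1.37, 1.36, 1.04 and 0.98. For the counts of 0, 1 gene had an unadjusted p under 0.05 at each time and DESeq2 called 0. ATG8, the ubiquitin-like protein of autophagosome membranes, rose by 4.50 ± 0.31 in saturated cultures, the sorting nexin gene ATG20 by 1.73 ± 0.27 and ATG11, a scaffold of selective autophagy, by 1.72 ± 0.28. Leaving out log-phase replicate 1 gave 5, 4, 5 and 2 risen in that order, and leaving out log-phase replicate 2 gave 5 in the lawn; either left 1 fallen in saturated cultures and 0 in the lawn.

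Of 33 sorting and fusion genes 4 rose and 8 fell in saturated cultures (12.1% and 24.2%, against 27.9% and 25.1% of all genes; median −0.04). In the lawn 4 rose and 4 fell, at 4 h 4 rose and 1 fell, and at 1 h 3 rose and 0 fell (unadjusted 5 and 0, DESeq2 3 and 0). The list was led in saturated cultures by PEP12, a SNARE of the late endosome, higher by 2.30 ± 0.37 (1.57 without saturated replicate 2), VPS26, a retromer subunit, higher by 1.58 ± 0.26, and GGA2, a clathrin adaptor of the Golgi, lower (−1.78 ± 0.28). Without log-phase replicate 1 the saturated falls numbered 4. In the lawn that fit gave 1 risen and 1 fallen, leaving out log-phase replicate 2 gave 2 and 2, and plain library totals gave 10 and 2. At 4 h 0 and 2 rose without log-phase replicates 1 and 2, and 6 fell when either saturated replicate was left out, which at 1 h gave 5 risen and 1 fallen. Of 22 genes of the vacuolar proton pump (V-ATPase) and its assembly, 16 fell in the lawn (72.7%, against 20.9% of all genes) and 13 in saturated cultures (59.1%, against 25.1%), with medians of −1.36 and −1.08, with VMA3 (−2.16 ± 0.30), VMA2 (−2.09 ± 0.32) and VMA5 (−1.92 ± 0.34, and −2.53 without saturated replicate 1) leading in saturated cultures. The riser in each of these, RAV2 of the pump's assembly complex (1.12 ± 0.33 in the lawn, 1.66 ± 0.28 in saturated cultures), was named after its value was seen, and it did not pass in the lawn when either log-phase replicate was left out. In the lawn 8 fell once log-phase replicate 1 was left out, 10 with log-phase replicate 2 left out and 10 with plain library totals. At 4 h of rapamycin 1 of the 22 rose and 1 fell (unadjusted 2 and 8, DESeq2 0 and 2). The median at 4 h was −0.71, and −0.67 to −0.87 with 1 library left out. The number fallen moved in those fits, as did calls over all genes. No saturated library enters this comparison, so leaving one out changes only the shared error, the scaling and the genes tested. At 1 h 0 rose or fell (unadjusted 2 and 1, DESeq2 0).

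**Figure D4:**
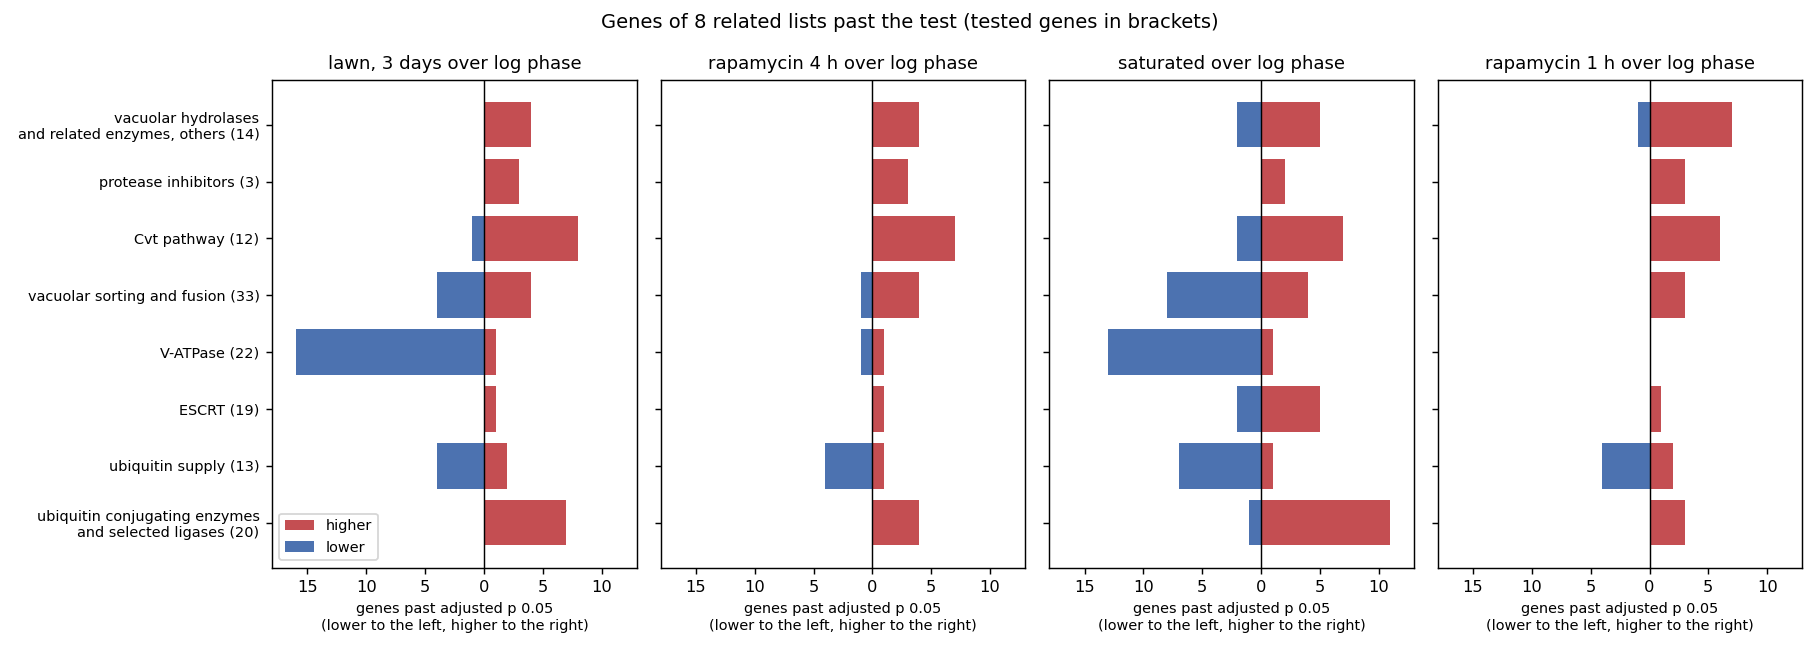
Genes of 8 related lists past an adjusted p of 0.05 in the lawn, at 4 h of rapamycin, in saturated cultures and at 1 h of rapamycin over log phase, lower to the left and higher to the right, with the number tested in brackets. The vacuolar proton pump list has 16 lower in the lawn and 13 in saturated cultures, and the Cvt pathway list has 8, 7, 7 and 6 higher.

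Beside UBI4, 13 other genes of ubiquitin supply had 1 risen and 7 fallen in saturated cultures (7.69% and 53.8%, against 27.9% and 25.1% of all genes; median −0.86), the fusion genes leading the falls. The fallen numbered 4 without log-phase replicate 1. In the lawn 2 of the 13 rose and 4 fell, at 4 h 1 rose and 4 fell, and at 1 h 2 rose and 4 fell. RPL40A, RPL40B and RPS31 were among the fallen in each of these. Leaving out log-phase replicate 1 or 2 gave 1 riser in the lawn and 0 at 4 h and at 1 h. Among 20 conjugating enzymes and selected ligases 11 rose and 1 fell in saturated cultures (55.0% and 5.00%, against 27.9% and 25.1% of all genes; median 1.00), led by the E2 enzymes UBC5 (2.70 ± 0.30), UBC8 (2.11 ± 0.30) and UBC4 (1.90 ± 0.36, and 1.29 without saturated replicate 1). UBC4 and UBC5 are close copies and may share reads. In the lawn 7 of these rose, but leaving out log-phase replicate 1 left 2 and log-phase replicate 2 left 3. At 4 h 4 rose and at 1 h 3 did, with 2 and 1 when either log-phase replicate was left out and 6 and 5 when either saturated replicate was. Of 19 genes of the ESCRT machinery, which takes ubiquitin-marked membrane proteins into the vacuole, 5 rose and 2 fell in saturated cultures (26.3% and 10.5%, against 27.9% and 25.1% of all genes; median 0.39), among them MVB12 (1.44 ± 0.39), the ubiquitin-binding VPS27 (1.37 ± 0.26) and VTA1 (−2.27 ± 0.37). Leaving out log-phase replicate 1 gave 2 risen and 1 fallen, log-phase replicate 2 gave 1 risen, saturated replicate 1 gave 1 fallen and saturated replicate 2 gave 4 fallen. MVB12 did not pass in the first 3 of these fits (1.31, 1.40 and 0.76). In the lawn, at 4 h and at 1 h, 1 ESCRT gene rose, with 3, 3 and 5 risen when either saturated replicate was left out and 0, 0 and 0 without log-phase replicate 2.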

How the data were processed

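Per the labels' protocols, total RNA was depleted of ribosomal RNA, broken by alkaline hydrolysis, and fragments of 27 to 40 nt were sequenced as single reads of 40 nt. Tools named in the submitters' processing notes are cutadapt 1.8 and STAR 2.4, with the build R64 (sacCer3). How reads were counted, on which annotation, with or without strand, and what was done with reads matching several places is not given in the sources used here. Per the file headers, the authors deposited for each library the read count and the TPM of 6665 genes and of 300 introns, and the values sum to 1000000 TPM over both tables. None of the 10 genes has an intron listed, none overlaps another gene of the R64 RefSeq table, and the counted length matches the annotated one for each. Of the 6665 identifiers, 5989 matched a symbol there. Overlap with the others was not checked.

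The tests used edgeR 4.0.16 under R 4.3.3 on the deposited counts (quasi-likelihood test, two-sided, TMM scaling, 5 groups in 1 fit of 7 libraries, 2 residual and 6.94 prior degrees of freedom) over the 5827 genes that pass its low-count filter, with Benjamini-Hochberg adjustment at 0.05. The standard error is the log2 change divided by the square root of F. Alternatives were RLE scaling, plain totals, no filter, DESeq2 1.42.0, limma 3.58.1 on log2(TPM + 1), a fit of 4 libraries with and without a replicate block, and leaving out each log-phase or saturated library. Replicate libraries were not duplicates of one another: the chi-square of their counts divided by its degrees of freedom was 31.7 for the saturated pair and 14.5 for the log-phase pair. The 10 genes and the 8 lists of related genes (136 genes, all matched) were chosen with earlier results of these data known. Listed genes named are up to 3 per list with the largest change past the test in saturated cultures and a mean of at least 10 CPM, plus PAI3, TFS1, DAP2, PHO8 and the ubiquitin fusion genes. The edgeR step was also run on simulated counts. There all groups had the same profile apart from genes altered up and down in equal number. That setting is simpler than these data, so it does not check the scaling or the shared error here.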

Additional observations from a re-analysis of the deposited data

Results flagged for a closer look

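The change of 2 genes differed between the rapamycin times in a direct test. CPS1 was lower at 4 h than at 1 h by a log2 value of −3.49, and LAP3 by −2.24. Each time is 1 library, and with limma on log2(TPM + 1) neither passed (adjusted p = 0.095 and 0.0806).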

How the results depend on the processing

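Each of the 10 genes was recomputed under the alternatives in each comparison, and 558 of 650 values kept their direction and side of the threshold.

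The genes called higher in saturated cultures numbered 3 by limma on log2(TPM + 1) in place of 5, and 3 to 5 when 1 library was left out; those called lower numbered 1 to 2. At 4 h of rapamycin leaving out 1 library gave 2 to 5 higher and 0 to 1 lower, and in the lawn 2 to 4 higher and 0 to 2 lower, with 0 lower by plain totals and by limma. Between rapamycin times limma called 0 lower. The lawn against saturated cultures had 3 higher by plain totals and by limma, and 1 lower by RLE scaling, no filter and DESeq2, with 0 to 2 higher and 1 to 3 lower when 1 library was left out. For 4 h against saturated cultures, 3 were higher by plain totals, 2 by no filter and by DESeq2 and 4 by limma, and DESeq2 called 1 lower; leaving out 1 library gave 1 to 4 higher and 0 to 1 lower.

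Changes of sign were all of values not past the main test. In saturated cultures PEP4 stood at −0.16 with plain totals, −0.093 by limma and −0.28 (log-phase replicate 1) to 0.67 (log-phase replicate 2) with 1 library left out, PRC1 at −0.52 to 0.19 with 1 left out, and DAP2 at 0.000237 with the replicate block and −0.28 to 0.027 with 1 left out. At 1 h APE3 stood at −0.073 to 0.42 with 1 library left out. In the lawn PEP4 stood at 0.17 by limma and −0.89 to 0.077 with 1 left out, and APE1 at −0.11 to 0.69. For the lawn against saturated cultures, PEP4 stood at 0.13 with plain totals and 0.26 by limma, CPS1 at 0.14 and 0.42 and at −1.18 to 0.28 with 1 library left out, and APE1 at 0.017 by limma. For 4 h against saturated cultures UBI4 stood at 0.087 with plain totals and 0.32 by limma. The cause was not tested.

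Calls over all genes also moved by more than 1.5 times. By limma they were 923 higher at 1 h (535 with edgeR), 233 lower at 4 h (669), 770 lower in the lawn (1218), 0 higher and 1 lower between rapamycin times (308 and 57), 1487 and 209 for the lawn (294 and 416) and 1988 and 207 for 4 h (441 and 463) against saturated cultures. Lower calls between rapamycin times numbered 111 by RLE scaling, 99 with no filter and 108 by DESeq2, which called 290 higher for 4 h against saturated cultures. Leaving out 1 library gave 998 to 1615 higher in saturated cultures (1626 with all), 221 to 1145 higher and 513 to 1140 lower at 1 h (535 and 673), 392 to 1229 higher and 296 to 1535 lower at 4 h (863 and 669), and 731 to 1434 higher and 822 to 1879 lower in the lawn (1204 and 1218). It gave 312 to 798 higher and 55 to 610 lower between rapamycin times, and against saturated cultures 283 to 698 higher and 394 to 938 lower for the lawn and 318 to 1129 higher and 415 to 991 lower for 4 h. Of the 64 counts of listed genes, 43 stayed within a factor of 1.5 with plain totals, 51 with DESeq2 and 35 without log-phase replicate 1, where the other 29 were lower.

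The replicate numbers of log-phase and saturated libraries are only a number in the labels; deviations of same-numbered libraries had a correlation of 0.163 across genes. With the replicate block, 5 of the 10 genes were higher and 2 lower in saturated cultures, the second being CPS1 (−0.74, edgeR, Benjamini-Hochberg adjusted p = 0.0378). Of the 5539 genes tested in that fit, 30.3% were higher and 28% lower. The lowest count of the 10 genes was 90 reads, for LAP3 in saturated replicate 2.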
